A study of Mus musculus with 9 samples.

Results

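The genes of the phagocyte NADPH oxidase were followed in RNA-seq libraries of RAW264.7 cells, an established line of mouse monocyte and macrophage origin that served as the in vitro macrophage of the study. The members were 8 of the 28137 gene identifiers in the table, picked by gene symbol, namely Cybb, Cyba, Ncf1, Ncf4, Rac1, Rac2, Hvcn1 and Sod2. The study concerned SFRP2, a secreted modulator of Wnt signaling, in diabetic wound healing. Its cell experiment held 9 libraries, 3 per siRNA: a negative control siRNA (NC), an siRNA against SFRP2 and an siRNA against RAB6A, a small GTPase of Golgi trafficking. Cells of every group received 60 nM of siRNA for 6 h, rested in complete medium for 12 h and were then exposed to 100 ng/ml of lipopolysaccharide (LPS) before RNA was taken 24 h later, so that the NC cells were LPS-treated too and no resting cells were compared. These conditions are those of the labels, and the study's methods describe another medium, siRNA dose and stimulus. The titles number the libraries of every group from 1 to 3, and those of the SFRP2 siRNA group read siRNA and a number. The study's supplement gives these same names to 3 different siRNA sequences. No source used here says whether each SFRP2 siRNA library received its own sequence, so these 3 libraries may differ in siRNA as well as in replicate. The paper does not describe the RAB6A siRNA. The paper states in general that its data represent at least 3 independent experiments. It does not say of these libraries that the 3 of a group came from separate cultures. The p-values therefore measure the spread between these libraries, which may be technical.

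The phagocyte NADPH oxidase moves electrons from cytosolic NADPH across a membrane to oxygen and makes superoxide in the phagosome or outside the cell. At rest its parts lie apart: a membrane heterodimer of gp91phox (Cybb, also called NOX2) and p22phox (Cyba) waits for cytosolic proteins, among them p47phox (Ncf1) and p40phox (Ncf4), and for a GTP-bound Rac protein. Macrophages use it to kill microbes and in redox signaling, and loss of a subunit causes chronic granulomatous disease. Hvcn1, a voltage-gated proton channel, balances the charge that the oxidase moves, and Sod2, the manganese superoxide dismutase of mitochondria, turns superoxide into hydrogen peroxide.

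All values are FPKM, fragment counts divided by exon length and library size, so that levels can be compared between genes per length. The recovered reads in genes ran from 32297214 to 46544869 per library, and each member other than Hvcn1 had between 3106 and 38491 reads in every library. All 7 macrophage markers that were searched had a mean of at least 0.5 FPKM in every group, with summed levels of 4401 to 4854 FPKM in NC, 3895 to 4210 in SFRP2 siRNA and 3905 to 4052 in RAB6A siRNA libraries. The 5 LPS-response genes summed to 4223 to 4522 FPKM in NC, 3979 to 4156 in SFRP2 siRNA and 2414 to 2580 in RAB6A siRNA libraries. With RAB6A siRNA 2 of these 5 rose and 2 fell, from Ptgs2 (log2 fold change 0.68) to Acod1 (-1.98), which carried most of the lower sum, and their median was 0.20. Of the 7 macrophage markers 1 rose, Fcgr3 (0.61), and 2 fell, Lyz2 (-2.03) and Csf1r (-1.44). The counts of both lists are genes with a limma adjusted p under 0.05, beside 37.6% of all genes higher and 36.5% lower. These shifts moved with the oxidase gene values below, and their part in them was not tested. Markers of neutrophils, which also carry the oxidase, summed to at most 1.42 FPKM in any library (6 of 7 in the table, with Elane and S100a9 at 0 in all NC libraries). Those of lymphocytes summed to at most 0.345 FPKM, of fibroblasts to at most 2.28 and of epithelium to at most 0.546. The targeted Rab6a measured 24.3, 27.3 and 25.5 FPKM in NC and 21.2, 20.7 and 20.4 in RAB6A siRNA libraries, a log2 fold change of -0.31 with a limma adjusted p of 0.0024. Among the 12712 genes tested the median absolute log2 fold change was 0.63, and 74.1% had an adjusted p under 0.05. This fall is therefore a weak check of that label. The targeted Sfrp2 had 2 reads in each NC library and 4, 4 and 2 reads in the SFRP2 siRNA libraries, so its level does not check that label, and SFRP2 siRNA stands here for the label only.

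Promoter sequences of called members are shown because these members did not all move in the same direction. The RefSeq table for GRCm38.p6 held 4 of the 8 members, Cybb, Cyba, Ncf1 and Sod2, and Ncf4, Rac1, Rac2 and Hvcn1 are named only. The RefSeq starts of Cybb and Sod2 lie inside the span that GENCODE M21 gives these genes. Each sequence covers 250 bases before to 50 bases after the RefSeq start, 5′ to 3′, and capitals mark a match to a motif on either strand. Cyba, Ncf1 and Sod2 were chosen as called members, and Cybb was added after its matches were seen.
Cybb promoter, chrX:9469275-9469574, minus strand: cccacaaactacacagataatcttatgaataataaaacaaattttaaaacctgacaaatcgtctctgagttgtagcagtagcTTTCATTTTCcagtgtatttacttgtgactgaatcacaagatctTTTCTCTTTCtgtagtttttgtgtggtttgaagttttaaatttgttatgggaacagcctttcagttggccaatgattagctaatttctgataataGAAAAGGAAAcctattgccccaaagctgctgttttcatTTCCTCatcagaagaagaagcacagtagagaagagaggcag
Cyba promoter, chr8:122432891-122433190, minus strand: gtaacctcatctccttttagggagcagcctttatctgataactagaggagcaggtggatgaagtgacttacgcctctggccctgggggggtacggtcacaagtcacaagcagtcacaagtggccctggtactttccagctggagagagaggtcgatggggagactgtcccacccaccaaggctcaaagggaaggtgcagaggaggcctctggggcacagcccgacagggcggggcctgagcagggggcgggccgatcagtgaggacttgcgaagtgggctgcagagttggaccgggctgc
Ncf1 promoter, chr5:134229576-134229875, minus strand: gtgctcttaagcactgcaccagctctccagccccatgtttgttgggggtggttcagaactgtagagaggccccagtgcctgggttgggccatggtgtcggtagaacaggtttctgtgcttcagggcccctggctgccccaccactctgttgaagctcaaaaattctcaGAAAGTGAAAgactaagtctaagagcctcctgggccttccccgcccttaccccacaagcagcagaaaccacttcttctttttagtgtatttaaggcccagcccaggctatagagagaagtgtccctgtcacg
Sod2 promoter, chr17:13007589-13007888, plus strand: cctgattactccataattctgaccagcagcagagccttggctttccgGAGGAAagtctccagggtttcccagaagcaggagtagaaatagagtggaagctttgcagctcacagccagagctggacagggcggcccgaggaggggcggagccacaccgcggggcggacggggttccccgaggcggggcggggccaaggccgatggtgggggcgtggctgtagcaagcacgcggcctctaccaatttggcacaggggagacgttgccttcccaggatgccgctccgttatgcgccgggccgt

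Of the motifs searched on both strands, GAGGAA, the core bound by the myeloid factor PU.1, was found in 28.3% of all 32851 promoters of the table. An interferon-response element, GAAA followed after any 2 bases by GAAA, was found in 3.44% of them, and an NF-kB-like site, GGGA followed after any 2 bases by TTCC, in 1.47%. The Cybb promoter held 3 matches to the interferon-response element, 29, 124 and 168 bases before the start, and a PU.1 core 10 bases after it. The Ncf1 promoter held 1 match to the interferon-response element, 82 bases before the start. The Sod2 promoter held 1 PU.1 core, 203 bases before the start, and the Cyba promoter held none of the 3 motifs. A match describes letters in this window and is no measure of binding.

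In NC libraries the oxidase genes were among the more highly expressed genes of these cells. Rac2 stood at 219 ± 10.2 FPKM (mean ± SD, n = 3), the level at percentile 98.7 among the 11979 genes with an NC mean of at least 0.5 FPKM. Cybb at 134 ± 5.25 FPKM and Ncf1 at 132 ± 2.02 followed, and their ranges overlapped. Cyba at 113 ± 5.15, Ncf4 at 48.6 ± 2.02, Sod2 at 36.1 ± 0.984 and Rac1 at 29.0 ± 1.35 FPKM came next, and no neighbors overlapped in this lower part of the order. Hvcn1 was at 0.0551 ± 0.0385 FPKM. SFRP2 siRNA libraries held the same order, with Cybb and Ncf1 again overlapping. In RAB6A siRNA libraries Cyba stood above Ncf1 and Cybb, which overlapped, and Rac1 and Sod2 overlapped. The plot of levels by library shows all values.

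**Figure D1:**
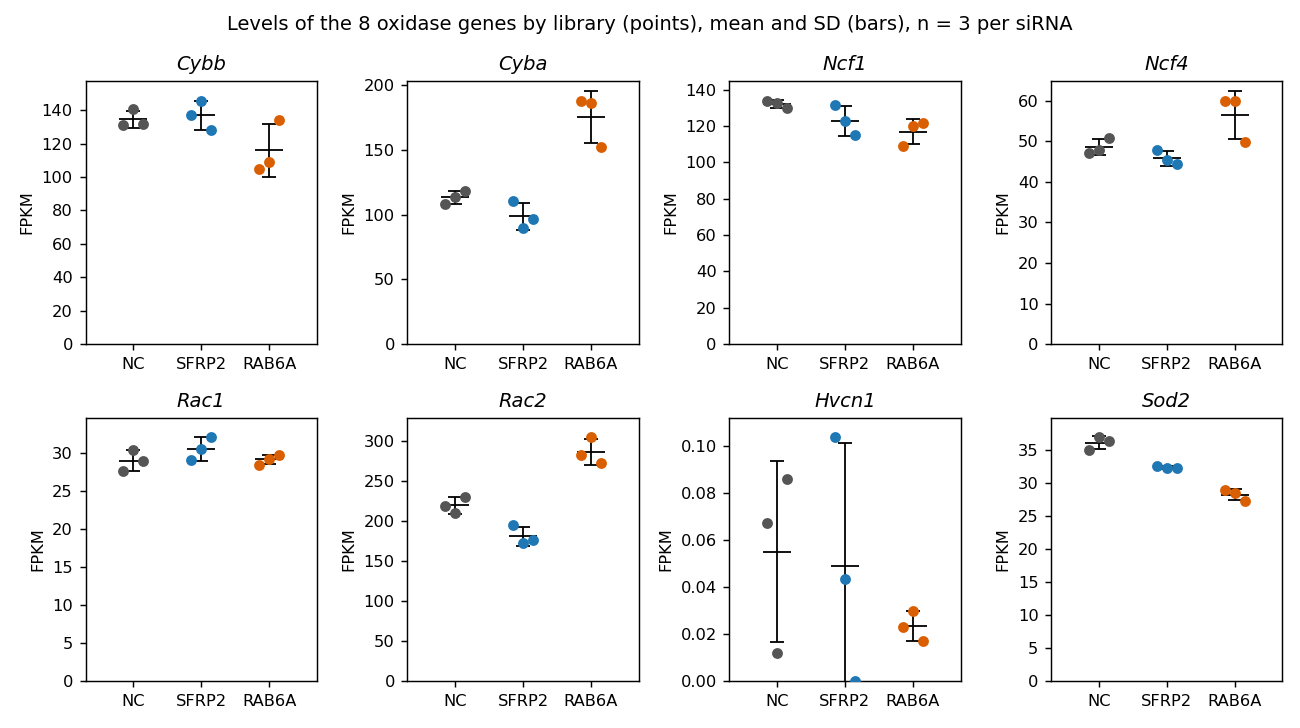
Levels of the 8 oxidase genes in FPKM (vertical axes, linear, from 0, a separate scale per gene) in the NC, SFRP2 siRNA and RAB6A siRNA libraries. Points are libraries in the order of replicates 1 to 3, and bars give mean ± SD of the 3 libraries, cut at 0 for Hvcn1. Cyba and Rac2 sit highest and Sod2 lowest in all RAB6A siRNA libraries, while RAB6A siRNA replicate 3 lies within the NC range of Cybb and of Ncf4.

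RAB6A siRNA was compared with NC to see how the oxidase genes stood in these cells, where Rab6a itself had a log2 fold change of -0.31. Cyba and Rac2 rose, Sod2 and Ncf1 fell, and Cybb, Ncf4 and Rac1 did not pass the test. The test was limma on log2(FPKM + 0.1) over all genes with a mean of at least 0.5 FPKM in the 6 libraries, and a gene was called at a Benjamini-Hochberg adjusted p under 0.05. It called 4 of the 7 members tested (57.1%), 2 higher and 2 lower, beside 74.1% of the 12712 genes tested (37.6% higher and 36.5% lower). Hvcn1 did not pass the filter on low values. The 7 members had a median absolute log2 fold change of 0.22, beside 0.63 for all genes tested. No member passed an absolute log2 fold change of 1, which 30.1% of all genes did with an adjusted p under 0.05. The groups did not overlap for 4 of the 7 members, beside 77.4% of all genes. By voom on the recovered reads, with quantile normalization or without RAB6A siRNA replicate 3, 6 of the 7 were called. All genes stood at 75.7%, 73.7% and 73.4% in the same fits, so the members' share lay on both sides of that of the whole table. The 6 left out Rac1, except with quantile normalization, which called Rac1 and not Rac2. Without the filter 3 were called, beside 5864 genes higher and 5070 lower of 27077. Without a trend 3 were called, beside 4703 and 4572 of 12712, and with a replicate block 3, beside 4649 and 4454 of 12712. Each of these fits lost Ncf1. The count of 3 and the loss of Ncf1 held without any 1 NC library or without RAB6A siRNA replicate 1. Those fits called 4418 to 4544 genes higher and 4289 to 4412 lower of 12712. After the GC content and length correction only 2 were called, Rac2 and Rac1, beside 5185 genes higher and 4221 lower of 12535. The calls of Cyba, Sod2, Ncf1 and Rac2 thus depended on the processing, and that of Rac2 was lost only with quantile normalization.

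The SFRP2 siRNA comparison asked whether the same genes moved after the siRNA of the study's own target. No member was called by limma among the 7 tested, as was no gene at all (0% of 12017). The paper does report differentially expressed genes for SFRP2 siRNA in this cell line, more of them lower than higher. Its methods name DESeq2, which was not run here. The absence of calls by limma thus differs from the paper's result, and the cause of the difference was not tested. At an unadjusted limma p under 0.05 stood 3 of the 7 members, Rac2, Sod2 and Cyba, all lower. The share of all genes was 18.5% in either direction, and the share lower alone was not counted. With voom on the recovered reads 41 genes passed the adjusted threshold (7 higher and 34 lower), and no member was among them. The groups did not overlap for 2 of 7 members, Rac2 and Sod2, both lower, beside 24.7% of all genes in either direction and 13.9% lower. The median log2 fold change of the 7 members was -0.11, beside -0.01 for all genes. Both comparisons used the same 3 NC libraries, so their values stand side by side and are not independent. In bulk RNA a change in the number of cells of a kind and a change in RNA per cell cannot be told apart.

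**Figure D2:**
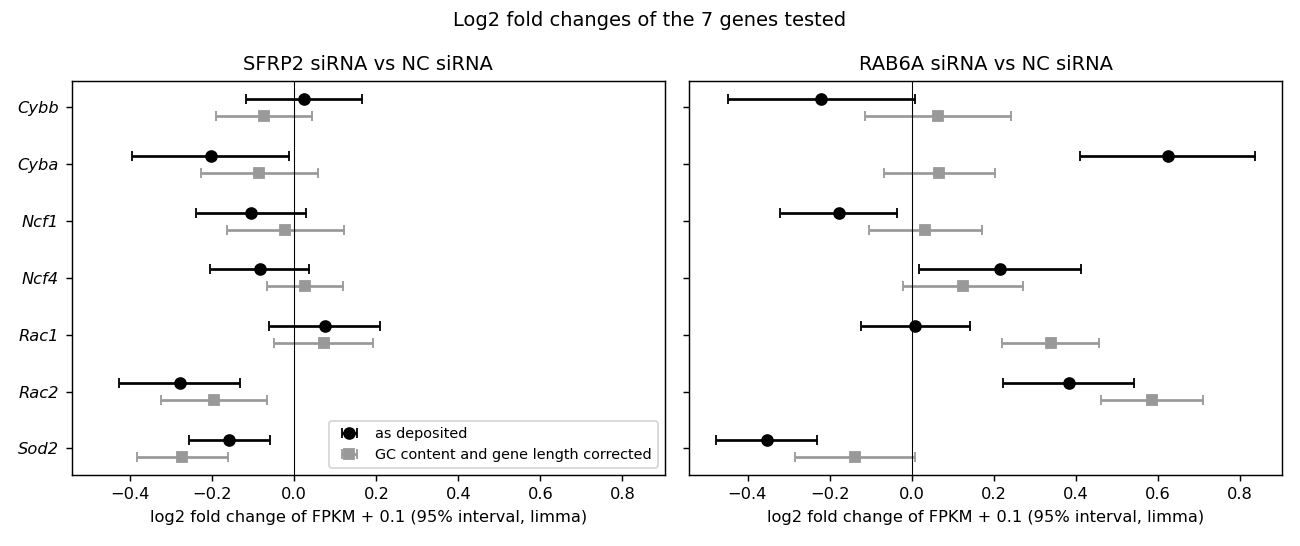
Log2 fold changes of the 7 tested oxidase genes against NC (horizontal axis, log2 of FPKM + 0.1, limma, bars are 95% intervals, 3 libraries per group), for SFRP2 siRNA at left and RAB6A siRNA at right. Black circles are the deposited values and grey squares the values after correction for GC content and gene length. In the RAB6A siRNA panel Cyba stands at 0.62 as deposited and at 0.067 after the correction, while Rac2 stands at 0.38 and 0.59.

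Cybb (ENSMUSG00000015340, chromosome X, 9435252 to 9487771, GRCm38) encodes gp91phox, the subunit that carries the heme and flavin and passes the electrons on. It measured 131, 141 and 132 FPKM in the NC libraries, 137, 146 and 128 in the SFRP2 siRNA libraries, and 105, 109 and 134 in the RAB6A siRNA libraries. RAB6A siRNA replicates 1 and 2 were below all NC libraries, replicate 3 was within their range, and the groups overlapped. The log2 fold change with RAB6A siRNA was -0.22 (95% interval -0.45 to 0.01, limma adjusted p = 0.074). Without RAB6A siRNA replicate 3 it was -0.33 with an adjusted p of 0.0019, and after the GC content and length correction it was 0.064. With voom on the recovered reads it was -0.21 with an adjusted p of 0.029. With SFRP2 siRNA it was 0.024 (95% interval -0.12 to 0.17, limma adjusted p = 0.852).

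Cyba (ENSMUSG00000006519, chromosome 8, 122424776 to 122432930) encodes p22phox, which stabilizes gp91phox and docks p47phox. It measured 108, 114 and 119 FPKM in NC, and 188, 186 and 152 FPKM in the RAB6A siRNA libraries. Every RAB6A siRNA library was above every NC library, with replicate 3 the nearest. Cyba rose by 0.62 on the log2 scale (SE 0.09, 95% interval 0.41 to 0.84, limma adjusted p = 5.0e-04), a 1.54-fold difference and the largest among the members. With 1039 bases of exon it was the shortest member, and its longest transcript had the highest GC content of the members, 59.3%. After correction for both properties its log2 fold change was 0.067 (adjusted p = 0.318), and the call was lost. The SFRP2 siRNA libraries measured 110, 89.4 and 96.8 FPKM. Replicate 1 lay within the NC range and replicates 2 and 3 lay below it, with a log2 fold change of -0.20 (95% interval -0.39 to -0.01, limma adjusted p = 0.253).

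The ratio of the membrane subunits was compared within each library, where a scaling factor common to all genes cancels. The log2 ratio of Cybb to Cyba FPKM was 0.28, 0.31 and 0.15 in NC, 0.31, 0.70 and 0.40 in SFRP2 siRNA and -0.84, -0.77 and -0.18 in RAB6A siRNA libraries. Cybb thus stood above Cyba in all 6 NC and SFRP2 siRNA libraries and below it in all 3 RAB6A siRNA libraries. The group means were 0.25 ± 0.08, 0.47 ± 0.21 and -0.60 ± 0.36 (SD, n = 3 each). Neither siRNA group overlapped NC, and the exact two-sided permutation p was 0.1 for both, the smallest that 3 against 3 libraries allow. With SFRP2 siRNA the lowest library (0.311) lay just above the highest of NC (0.307), and the difference of 0.23 was 0.11 without SFRP2 siRNA replicate 2. After the GC content and length correction the difference of RAB6A siRNA from NC went from -0.84 to -0.051, and that of SFRP2 siRNA from 0.23 to 0.011.

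Ncf1 (ENSMUSG00000015950, chromosome 5, 134220053 to 134229625) encodes p47phox, the organizer that is phosphorylated on activation and carries the cytosolic complex to the membrane. It measured 134, 133 and 130 FPKM in NC and 109, 120 and 122 in the RAB6A siRNA libraries. The highest RAB6A siRNA library was below the lowest NC library. Ncf1 fell by 0.18 on the log2 scale (95% interval -0.32 to -0.04, limma adjusted p = 0.030). The call was lost when NC replicate 1 (adjusted p = 0.090), NC replicate 2 (0.081), NC replicate 3 (0.058) or RAB6A siRNA replicate 1 (0.081) was left out, and the GC content and length correction turned the value to 0.034. The SFRP2 siRNA libraries measured 131, 123 and 115 FPKM and overlapped NC, with a log2 fold change of -0.11 (95% interval -0.24 to 0.03, limma adjusted p = 0.351). Of its 3663 exon bases, 408 overlap Gtf2ird2 on the other strand, and whether counting used the strand is not given in the sources used here.

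Ncf4 (ENSMUSG00000071715, chromosome 15, 78244801 to 78262580) encodes p40phox, which binds a phosphoinositide of the phagosome membrane. It measured 47.1, 47.7 and 50.9 FPKM in NC and 59.9, 60.0 and 49.7 in the RAB6A siRNA libraries. RAB6A siRNA replicates 1 and 2 were above NC and replicate 3 was within the NC range. The log2 fold change was 0.21 (95% interval 0.02 to 0.41, limma adjusted p = 0.05005), just past the threshold on the side not called. It passed without RAB6A siRNA replicate 3 (0.30, adjusted p = 0.0024) and in 6 of the other alternatives. With SFRP2 siRNA Ncf4 measured 47.8, 45.3 and 44.3 FPKM and overlapped NC (log2 fold change -0.08, 95% interval -0.21 to 0.04, limma adjusted p = 0.403).

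The cytosolic subunits Ncf1 and Ncf4 were also compared within each library. The log2 ratio of Ncf1 to Ncf4 FPKM was 1.51, 1.47 and 1.35 in NC, 1.46, 1.44 and 1.38 in SFRP2 siRNA and 0.87, 1.00 and 1.29 in RAB6A siRNA libraries. The RAB6A siRNA libraries lay below NC without overlap (exact two-sided permutation p = 0.1), while those of SFRP2 siRNA overlapped NC (p = 0.7). The difference of RAB6A siRNA from NC, -0.39, was -0.12 after the GC content and length correction and then no longer at the smallest possible p (exact permutation p = 0.4).

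**Figure D3:**
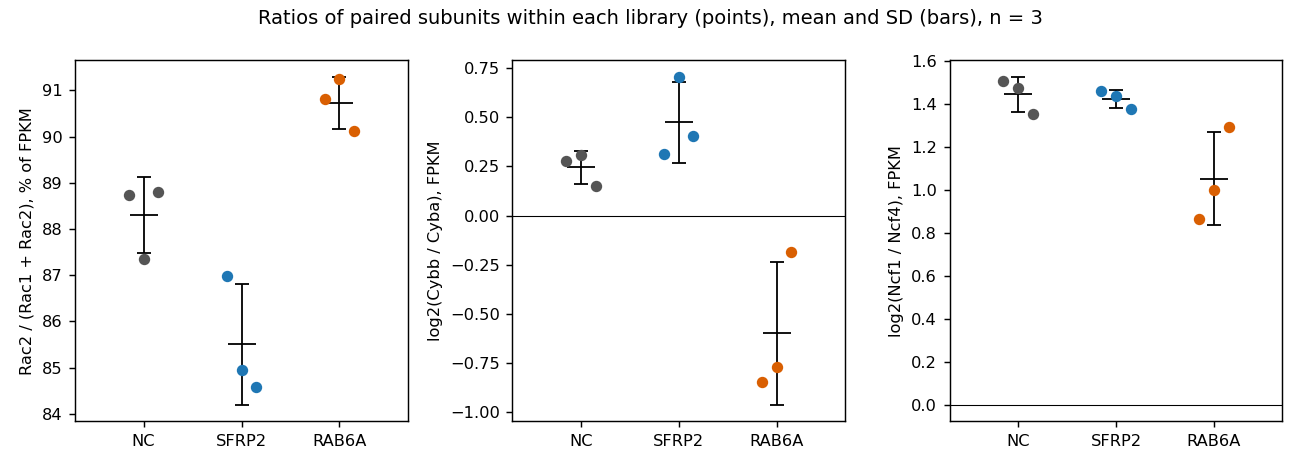
Ratios of paired subunits within each library for NC, SFRP2 siRNA and RAB6A siRNA: the Rac2 share of Rac1 plus Rac2 in percent of FPKM, the log2 ratio of Cybb to Cyba and the log2 ratio of Ncf1 to Ncf4. Points are libraries, bars give mean ± SD (n = 3) and the vertical axes do not all start at 0. The Cybb to Cyba ratio lies below 0 in the 3 RAB6A siRNA libraries and above 0 in the 6 others.

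Rac2 and Rac1 are alternative GTPase subunits of the oxidase, Rac2 restricted to blood cells and Rac1 found in most cells. Rac2 (ENSMUSG00000033220, chromosome 15, 78559167 to 78572783) measured 218, 210 and 230 FPKM in NC and 282, 305 and 272 in the RAB6A siRNA libraries. All RAB6A siRNA libraries were above all NC libraries. Rac2 rose by 0.38 on the log2 scale (95% interval 0.22 to 0.54, limma adjusted p = 0.0014), or 1.30-fold. The value was 0.59 after the GC content and length correction, and quantile normalization turned it to -0.0065 (adjusted p = 0.919). The SFRP2 siRNA libraries measured 194, 172 and 176 FPKM, all below all NC libraries. This log2 fold change was -0.28 (95% interval -0.43 to -0.13), with an unadjusted limma p of 0.0029 and an adjusted p of 0.169, which did not pass the threshold. With voom its adjusted p was 0.061, the lowest among all alternatives tried.

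Rac1 (ENSMUSG00000001847, chromosome 5, 143503634 to 143528036) measured 27.7, 30.4 and 29.0 FPKM in NC, 29.1, 30.5 and 32.1 in SFRP2 siRNA and 28.5, 29.3 and 29.8 in RAB6A siRNA libraries. The groups overlapped in both comparisons. The log2 fold change with RAB6A siRNA was 0.0092 (95% interval -0.12 to 0.14, limma adjusted p = 0.889), and with SFRP2 siRNA 0.075 (95% interval -0.061 to 0.21, limma adjusted p = 0.4996). After the GC content and length correction the RAB6A siRNA value was 0.34 (adjusted p = 5.4e-04). Of its 4496 exon bases, 2309 overlap Daglb on the other strand. Daglb measured 2.41 ± 0.109 FPKM in NC and 1.32 ± 0.0120 in RAB6A siRNA libraries (SD, n = 3), and its part in the Rac1 value was not tested.

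The Rac2 share of the summed Rac1 and Rac2 FPKM was 88.7%, 87.3% and 88.8% in NC, 87.0%, 84.9% and 84.6% in SFRP2 siRNA and 90.8%, 91.2% and 90.1% in RAB6A siRNA libraries. The share was highest in all RAB6A siRNA libraries and lowest in all SFRP2 siRNA libraries, with no overlap with NC in either case. The means were 88.3% ± 0.822, 85.5% ± 1.30 and 90.7% ± 0.568 (SD, n = 3 each), and both exact two-sided permutation p-values were 0.1, the smallest possible. Quantile normalization reversed the difference of RAB6A siRNA from NC, from 2.43 to -1.13 percentage points.

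Hvcn1 (ENSMUSG00000064267, chromosome 5, 122206804 to 122242297) was at the edge of detection in every group. It had 10, 2 and 13 recovered reads in the NC libraries, 15, 6 and 0 in the SFRP2 siRNA libraries and 3, 4 and 2 in the RAB6A siRNA libraries. The groups overlapped, with an exact two-sided permutation p of 0.9 for SFRP2 siRNA and 0.4 for RAB6A siRNA against NC. The depth did not allow a difference to be detected, and 1574 of its exon bases overlap Tctn1 on the other strand.

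Sod2 (ENSMUSG00000006818, chromosome 17, 13006846 to 13040063), an LPS-inducible enzyme, is no oxidase subunit and handles superoxide made in mitochondria. It measured 35.0, 36.9 and 36.3 FPKM in NC, 32.5, 32.2 and 32.2 in SFRP2 siRNA and 28.9, 28.5 and 27.3 in RAB6A siRNA libraries. Each SFRP2 siRNA library was below each NC library, and each RAB6A siRNA library was below each SFRP2 siRNA library. With RAB6A siRNA Sod2 fell by 0.35 on the log2 scale (95% interval -0.48 to -0.23, limma adjusted p = 5.5e-04), which was -0.14 after the GC content and length correction (adjusted p = 0.080). With SFRP2 siRNA its log2 fold change was -0.16 (95% interval -0.26 to -0.06), with an unadjusted limma p of 0.0067 and an adjusted p of 0.178, and -0.27 after the correction (adjusted p = 0.203). Of its 50-base words, 21.0% also occur in transcripts of other annotated genes, and how the counting treated such reads is not given in the sources used here, so the level of Sod2 is uncertain to that extent.

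RAB6A siRNA and SFRP2 siRNA were also compared directly, which tests whether their values differed. Cyba was higher with RAB6A siRNA by 0.83 on the log2 scale (limma adjusted p = 3.9e-04), Rac2 by 0.66 (adjusted p = 1.6e-04) and Ncf4 by 0.30 (adjusted p = 0.015). Sod2 was lower, at -0.20 (adjusted p = 0.0094). These 4 of 7 members were called beside 73.4% of the 12764 genes tested (37.6% higher and 35.8% lower). Cybb at -0.24 (adjusted p = 0.068), Ncf1 at -0.07 (0.403) and Rac1 at -0.07 (0.330) were not called. After the GC content and length correction 2 members were called, Rac2 at 0.77 and Rac1 at 0.26, and the Sod2 value turned to 0.14. In that fit 5101 genes were called higher and 4138 lower of 12576.

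The members differ in exon length and in GC content, and both properties moved with the fold changes of all genes. Across 12535 genes the Spearman correlation of the RAB6A siRNA log2 fold change was 0.08 with GC content and -0.21 with exon length. For SFRP2 siRNA it was -0.48 with GC content and 0.17 with length across 11903 genes. These describe genes, which are not independent replicates. In the bin of 1252 genes that holds Cyba by length, the median RAB6A siRNA log2 fold change was 0.36, and 59.2% of them lay below Cyba. In the length bin of Rac2 the median was -0.10, and 72.8% lay below Rac2. In the SFRP2 siRNA comparison Rac2 and Sod2 lay above 6.79% and 3.27% of the genes in their length bins and above 7.98% and 5.04% of those in their GC content bins.

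**Figure D4:**
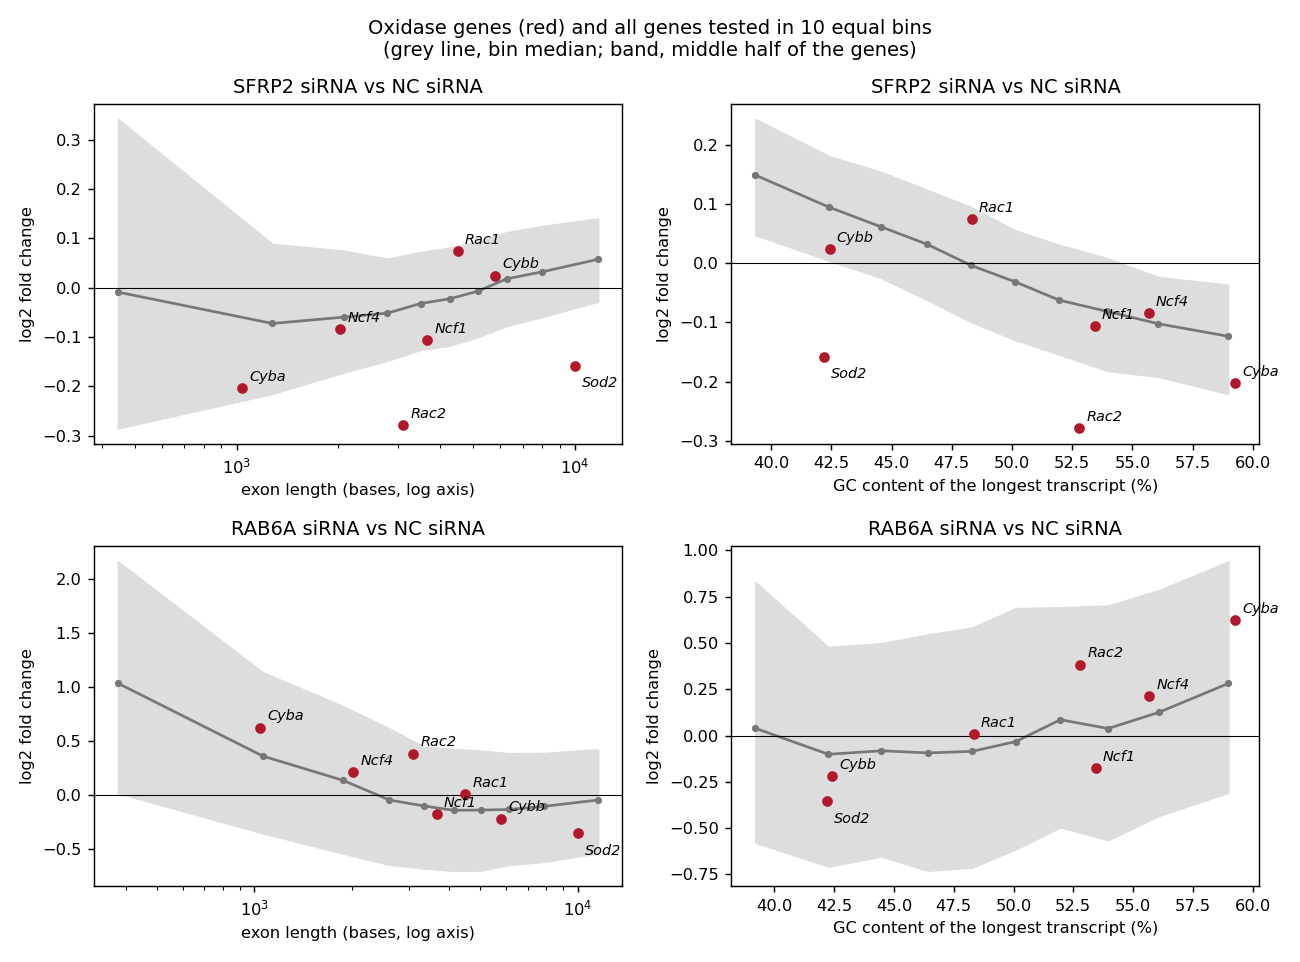
Log2 fold changes of the 7 tested oxidase genes (red points) over those of all genes tested, in 10 bins of equal gene number by exon length in bases (left, log axis) and by GC content in percent (right), for SFRP2 siRNA (top) and RAB6A siRNA (bottom) against NC. The grey line joins the bin medians and the band spans the quartiles of each bin. In the RAB6A siRNA panels each member lies within the band, and in the SFRP2 siRNA panels Rac2 and Sod2 lie below it.

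The other genes of the pathway were read from lists, on the deposited scale alone. Among other NADPH oxidase subunits 10 of 11 genes were in the table and 2 were tested, with none called in either comparison with NC. Nox1, Nox4, Noxo1, Noxa1, Rac3 and the Duox genes each had a group mean below 0.5 FPKM, and Cybb was the highest of the measured catalytic NADPH oxidase transcripts per length.

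Genes of oxidase assembly and upstream signaling moved both ways with RAB6A siRNA. Of 23 tested, 3 rose and 12 fell, beside 37.6% and 36.5% of all genes, and their median log2 fold change was -0.20, beside 0.03 for all genes. Pik3cg, a lipid kinase of chemoattractant signaling, fell by 1.31 on the log2 scale (12.6 ± 0.639 FPKM in NC and 5.04 ± 0.204 in RAB6A siRNA libraries). Syk, a kinase of Fc receptor and lectin signaling, fell by 1.03 (17.9 ± 1.26 and 8.70 ± 0.376 FPKM). Prdx6, a peroxiredoxin that binds the oxidase, rose by 0.51 and Rap1a, a small GTPase found with the membrane heterodimer, by 0.47. Cybc1, a chaperone of the heterodimer, was not called (0.07, limma adjusted p = 0.433).

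Genes that remove superoxide and hydrogen peroxide moved both ways with RAB6A siRNA. Of 14 tested, 7 rose and 5 fell, beside 37.6% and 36.5% of all genes, and the median of their log2 fold changes was 0.14. Prdx5, a peroxiredoxin, rose by 1.61 (96.2 ± 3.72 FPKM in NC and 295 ± 38.0 in RAB6A siRNA libraries) and Gpx4, a lipid peroxidase, by 1.01. Txnrd1, the cytosolic thioredoxin reductase, fell by 1.42 and Gpx1, a glutathione peroxidase, by 1.101. Sod1, the cytosolic superoxide dismutase, rose by 0.46 (limma adjusted p = 8.2e-04).

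Of 8 genes that supply NADPH, 1 rose and 5 fell with RAB6A siRNA, beside 37.6% and 36.5% of all genes, and their median was -0.32 on the log2 scale. Pgd, a dehydrogenase of the pentose phosphate pathway, fell by 1.24 and Nadk, the NAD kinase, by 0.90. Pgls, the lactonase between the dehydrogenases of that pathway, rose by 1.21. Of 8 transcription factors linked to oxidase genes, 2 rose and 5 fell beside the same shares of all genes, with a median of -0.46. Spi1, which encodes PU.1, fell by 1.05 (130 ± 9.28 FPKM in NC and 62.9 ± 5.41 in RAB6A siRNA libraries) and Irf1 by 1.09. Irf8 rose by 0.53.

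With SFRP2 siRNA no gene of these 5 lists was called by limma. At an unadjusted p under 0.05 stood 6 of 23 assembly genes, 6 of 14 removal genes, 3 of 8 NADPH supply genes and 3 of 8 transcription factors, beside 18.5% of all genes. Irf1 had a log2 fold change of -0.31 (unadjusted p = 4.7e-04, adjusted p = 0.163), Irf8 of -0.25 (adjusted p = 0.184), Sod1 of -0.25 (adjusted p = 0.178) and Spi1 of -0.19 (adjusted p = 0.212). Prdx5 stood at -0.26 and Gpx4 at -0.29, and neither passed the adjusted threshold.

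Across the 9 libraries some members varied together and others in opposite directions. Pearson's r on log2(FPKM + 0.1), given as a description over libraries that share their groups, was 0.96 between Cyba and Rac2 and 0.94 between Cyba and Ncf4. It was -0.83 between Cybb and Cyba and -0.88 between Cybb and Ncf4. With the group means removed these were 0.79, 0.88, -0.71 and -0.74. Every pair with Sod2 changed sign on that step, as did Ncf1 and Rac2. For Cyba and Sod2 r went from -0.67 to 0.73, and for Cybb and Sod2 from 0.54 to -0.50. Among 12549 genes, the 5 with the highest r with Cybb were Igf2bp2 (0.97), Sec62 (0.96), Eef1akmt2 (0.95), Ola1 (0.94) and Ccdc15 (0.94). Igf2bp2 measured 61.4 FPKM in NC, 63.9 in SFRP2 siRNA and 54.3 in RAB6A siRNA libraries as group means, and its RAB6A siRNA replicate 3, at 61.2 FPKM, was like that of Cybb within the NC range.

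RAB6A siRNA replicate 3 was the RAB6A siRNA library nearest to NC for Cybb, Cyba, Ncf1, Ncf4 and Rac2, and the farthest from NC for Sod2. Over the 3829 genes past both thresholds in that comparison, the median ratio of a library's difference from NC to that of the other 2 was 0.934 for replicate 3, 1.07 for replicate 1 and 1.01 for replicate 2. Without it Cybb and Ncf4 were added to the 4 members called.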

How the data were processed

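RAW264.7 libraries (3 per siRNA) were read from paired-end mRNA-seq. The values deposited by the authors are FPKM. The submitters' processing notes name HISAT2, featureCounts and Subread, and versions, genome build, annotation and strandedness are not given in the sources used here. Gene identifiers were named from GENCODE M21 (GRCm38), which left 604 of 28137 unnamed and out of the length-based steps. FPKM times exon length gave whole reads within 0.03 in every library for 27084 genes (98.4% of those named), which gave the depth. Intervals are limma 95% confidence intervals of the log2 fold change. They rest on the spread between libraries, moderated over all genes tested, and cover no other source of error.

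Each comparison was tested on log2(FPKM + 0.1) in R 4.3.3 by limma 3.58.1, using lmFit and a trended eBayes, over all genes whose mean in its 6 libraries was 0.5 FPKM or more, with Benjamini-Hochberg adjustment. Such fold changes understate low genes. The paper's methods name DESeq2, which needs counts, and it was not run on the recovered reads. Ratios were compared by an exact two-sided permutation test. Python 3.11.15, numpy 2.4.6, pandas 2.3.3 and scipy 1.17.1 were used for other steps. The limma step was tested on simulated data. The genes named were all 8 members, the 2 highest and 2 lowest called genes of each list with RAB6A siRNA, Cybc1, Sod1, Spi1 and Irf8, and the 5 genes most correlated with Cybb. Some genes that this rule names are not reported here. Members and lists were chosen with earlier results of these data known. Alternatives were pseudocounts of 1 and 0.01, no filter, a minimum of 1 FPKM, quantile normalization, median-of-ratios scaling, no trend, all 9 libraries in 1 fit, a replicate block, a GC content and gene length correction by natural splines with 5 degrees of freedom (GC content from the longest transcript), both together, voom on recovered reads and each library left out. GC content alone and length alone were chosen after seeing the data.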

Additional observations from a re-analysis of the deposited data

How the results depend on the processing

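With the GC content and gene length correction, with or without a replicate block, 2 members were called in RAB6A siRNA against NC in place of 4. Without the block this stood beside 5185 genes higher and 4221 lower of 12535, and with it beside 5091 and 4136. In RAB6A siRNA against SFRP2 siRNA 2 were called too, beside 5101 and 4138 of 12576 without the block and 5048 and 4075 with it. GC content alone, added after seeing the data, also left 2 there, beside 4743 and 4532 of 12576. The correction moved the difference from NC in the Rac2 share to 1.69 percentage points, in the log2 ratio of Cybb to Cyba to -0.051 (RAB6A siRNA) and 0.011 (SFRP2 siRNA), and in that of Ncf1 to Ncf4 to -0.12 (RAB6A siRNA). Quantile normalization gave -1.13 percentage points for the Rac2 share and -0.61 for Ncf1 to Ncf4 with RAB6A siRNA, and 0.016 for the latter with SFRP2 siRNA, where leaving out a library gave -0.067 to 0.010. Log2 fold changes that reversed with RAB6A siRNA were Cybb (0.064 with the correction, with or without the block, and 0.016 for length alone), Ncf1 (0.034 and 0.039), Rac1 (-0.0058 with median-of-ratios scaling, and -0.025 to 0.043 with a library left out) and Rac2 (-0.0065 with quantile normalization). With SFRP2 siRNA they were Cybb (-0.074 with the correction, -0.073 for GC content alone, and -0.022 to 0.071 with a library left out) and Ncf4 (0.026 and 0.012). The cause was not tested. No member was called with SFRP2 siRNA in any alternative. Deviations of same-numbered libraries had correlations of -0.08 to 0.05, and those of different numbers -0.12 to 0.08. These values show no pairing by number and cannot exclude it. The replicate block alone called 3 members in RAB6A siRNA against NC, without Ncf1, beside 4649 genes higher and 4454 lower of 12712. In SFRP2 siRNA against NC it raised the genes at an unadjusted limma p under 0.05 from 2220 to 2988 of 12017, and called none. With 3 libraries per group only changes well above their spread can be called.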
